A study of Mus musculus with 4 samples.

Results

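Genes that mark tumour-initiating cells of the liver or encode stem cell factors were followed here, 10 of the 23359 rows of the expression table. They were picked by symbol from the names of such markers: the surface proteins Cd44, Cd34, Prom1 and Epcam, the innate immune receptor Tlr4, the pluripotency factors Nanog, Pou5f1 and Sox2, and the progenitor factors Sox4 and Sox9. Expression was measured by RNA sequencing in tumour-initiating stem-like cells, a cell culture grown out of liver tumours of C57BL/6 mice in medium with serum, EGF and dexamethasone. The 4 groups were cells given vehicle, cells given ATRA (all-trans retinoic acid, made from vitamin A and the ligand of retinoic acid receptors) at 5 µg/ml, cells given SAHA (suberoylanilide hydroxamic acid, which blocks histone deacetylases) at 0.5 µg/ml, and cells given both, each treatment lasting 16 hours. How long the vehicle culture was kept, how many animals the cells came from and whether they are 1 clone was not given in the sources used here. Each group had 1 library. No difference below has a replicate check, no p-value or error is given, and neighbours in an order of levels cannot be told apart by their spread.

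Cells that start tumours are commonly recognised by surface proteins. CD44 is a receptor for the matrix sugar polymer hyaluronan, CD34 is a sialomucin of progenitor and vessel cells, CD133 (encoded by Prom1) is a membrane protein of cell protrusions, and EpCAM is an adhesion molecule of epithelial cells and liver progenitors. TLR4 detects bacterial lipopolysaccharide and signals to NF-kB. NANOG, OCT4 (encoded by Pou5f1) and SOX2 maintain pluripotency in embryonic stem cells, while SOX4 and SOX9 act in progenitor cells of the bile duct lineage.

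The 10 genes fell into 2 groups by level. Cd44, Cd34, Tlr4, Sox2, Sox4 and Sox9 had a mean of at least 1 FPKM (sequenced fragments divided by transcript length and by library depth) over the 4 libraries, as did 8616 genes in all. Prom1, Epcam, Nanog and Pou5f1 stayed under 0.1 FPKM in every library. Of the 6 measurable genes, 2 were higher with ATRA alone (Sox2 and Sox4), 3 were lower with SAHA alone (Cd34, Tlr4 and Sox2) and 5 were lower with both compounds (the same 3, Cd44 and Sox4). Higher and lower mean here a difference of 1 or more in log2(FPKM + 1), which is 2-fold on that scale. That scale understates the difference of low genes, and folds given below are ratios of the FPKM values. Among all counted genes the same marks were passed by 0.917% (higher with ATRA), 16.0% (lower with SAHA) and 12.6% (lower with both). None of the 10 genes was lower with ATRA or higher with SAHA or with both, against 1.20%, 7.88% and 11.1% of counted genes.

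**Figure D1:**
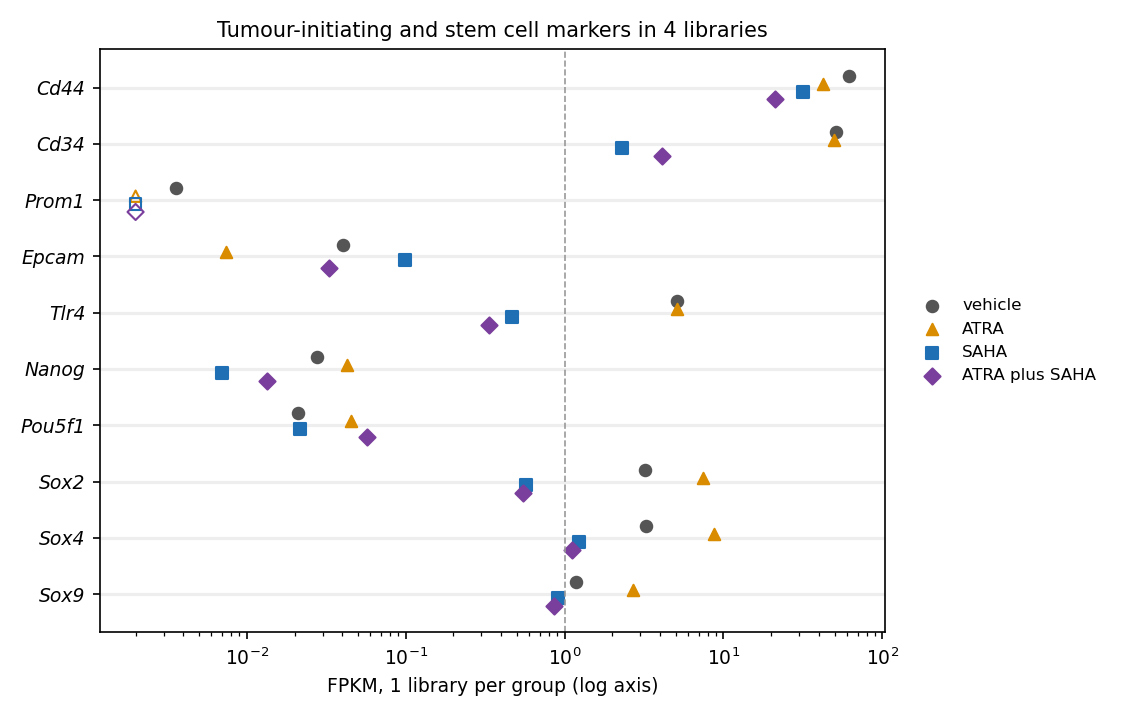
FPKM of the 10 genes on a log axis, with 1 point per library (circle vehicle, triangle ATRA, square SAHA, diamond ATRA plus SAHA). Open points are libraries in which Prom1 is listed at 0, and the dashed line is 1 FPKM. Both libraries with SAHA lie to the left of both libraries without it for Cd44, Cd34, Tlr4, Sox2, Sox4 and Sox9. Nanog has the same order, at no more than 0.0427 FPKM.

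The libraries differed in some general features. Their FPKM totals ran from 258214 to 309001, the 10 highest rows held 46.4% to 59.5% of these totals, with the highest share in the SAHA library, and 7781 to 8542 genes were at 1 FPKM or more. Low genes took values in steps, from which 1 FPKM of a transcript of 1 kilobase corresponds to about 94.6 to 104 fragments, with a second step at 1.96 to 2.02 times the first. The median of all counted genes was -0.12 on the log2 scale with SAHA alone and 0.04 with both compounds, each against vehicle. With SAHA alone 679 genes were higher and 1381 lower, against 881 and 1157 after centring on the median and 1475 and 889 after scaling to a common total without the 10 highest rows and small RNAs. The same scaling gave 665 higher and 1322 lower with both compounds, against 954 and 1089 as deposited.

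The cells were checked against markers of their labelled source. All 8 hepatocyte genes were below 1 FPKM in every library, with Alb (albumin) at 0 to 0.0162 FPKM. Of the 11 epithelial genes 1 reached a mean of 1 FPKM, the keratin gene Krt18 at 95.3, 116, 69.1 and 45.3 FPKM with vehicle, ATRA, SAHA and both. A further 8 were below 1 FPKM in every library. Krt8, at 1.11, 1.23, 0.772 and 0.747 FPKM, and Cldn3, at 1.10, 2.12, 0.401 and 0.0871, did not reach that mean. Of the 6 bile duct genes 2 did, Spp1 at 336, 566, 939 and 433 FPKM and Krt7 at 2.99, 2.88, 1.83 and 2.32. Of the 14 mesenchymal genes 6 did, while Col1a1, Col1a2, Col3a1, Cdh2 and Thy1 were at no more than 0.0465 FPKM. Pdgfrb, at 1.55, 1.07, 0.104 and 0.107 FPKM, and Zeb2, at 1.86, 1.53, 0.205 and 0.198, also had means under 1 FPKM. With SAHA against vehicle both were past the mark (log2 differences -1.21 and -1.25), outside the counts. Vim (vimentin) had 562, 432, 319 and 362 FPKM. With SAHA 3 of the 6 counted mesenchymal genes were lower and 0 higher, at a median of -1.58. With both compounds 3 were lower, at a median of -1.27. Of all counted genes 16.0% were lower with SAHA and 12.6% with both. Among the lower mesenchymal genes were Prrx1, a transcription factor gene, and Sparc, a matrix protein gene. Prrx1 was at 8.97, 9.02, 0.177 and 0.161 FPKM and Sparc at 33.4, 23.8, 2.65 and 2.68. Fn1, at 18.9, 27.8, 12.8 and 12.4 FPKM, was lower from ATRA alone to both compounds (log2 difference -1.10). The summed level of the mesenchymal list, most of it Vim, was 637 and 506 FPKM without SAHA and 337 and 380 with it, and that of the haematopoietic and macrophage list was 2.11 and 2.59 without SAHA and 5.38 and 4.40 with it, carried by Cd68. The part of these shifts in the results below was not tested. In RNA from a whole culture, fewer cells of a type and less RNA per cell cannot be told apart.

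The promoters of Cd34 and Cd44, which were lower with both compounds, and of Sox2 and Sox4, which were also higher with ATRA alone, are shown as the RefSeq sequence from 250 bases before to 50 bases after the gene's start (GRCm38.p6, the mm10 build). RefSeq promoters were matched for 8 of the 10 genes, without Tlr4 and Sox9. The windows are chr1:194938571-194938870, plus strand, for Cd34, chr2:102901616-102901915, minus strand, for Cd44, chr3:34649745-34650044, plus strand, for Sox2 and chr13:28953650-28953949, minus strand, for Sox4. Capitals mark matches on either strand to a CCAAT box, a GC box (GGGCGG), a half-site of retinoid receptors (AGGTCA), the core promoter element TATAAA, an E-box (CACGTG), an octamer (ATGCAAAT), a SOX site (ACAATG) or an NF-kB site (GGGACTTTC).
Cd34: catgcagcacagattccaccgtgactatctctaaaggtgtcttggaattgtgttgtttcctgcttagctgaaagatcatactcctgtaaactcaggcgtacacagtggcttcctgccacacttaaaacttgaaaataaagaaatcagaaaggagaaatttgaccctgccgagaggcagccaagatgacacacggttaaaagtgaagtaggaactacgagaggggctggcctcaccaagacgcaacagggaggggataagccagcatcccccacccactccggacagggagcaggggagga
Cd44: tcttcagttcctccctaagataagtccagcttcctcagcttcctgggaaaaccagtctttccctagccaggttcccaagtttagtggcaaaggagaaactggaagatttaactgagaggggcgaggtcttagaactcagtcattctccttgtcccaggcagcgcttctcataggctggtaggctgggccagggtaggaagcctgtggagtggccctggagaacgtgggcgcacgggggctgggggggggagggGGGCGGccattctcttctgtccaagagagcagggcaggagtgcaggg
Sox2: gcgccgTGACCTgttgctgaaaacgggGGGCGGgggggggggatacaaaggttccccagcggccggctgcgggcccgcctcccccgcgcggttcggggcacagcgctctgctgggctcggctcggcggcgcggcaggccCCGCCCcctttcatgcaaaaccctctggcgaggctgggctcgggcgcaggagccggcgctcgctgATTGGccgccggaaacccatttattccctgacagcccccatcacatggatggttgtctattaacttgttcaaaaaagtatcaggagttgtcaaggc
Sox4: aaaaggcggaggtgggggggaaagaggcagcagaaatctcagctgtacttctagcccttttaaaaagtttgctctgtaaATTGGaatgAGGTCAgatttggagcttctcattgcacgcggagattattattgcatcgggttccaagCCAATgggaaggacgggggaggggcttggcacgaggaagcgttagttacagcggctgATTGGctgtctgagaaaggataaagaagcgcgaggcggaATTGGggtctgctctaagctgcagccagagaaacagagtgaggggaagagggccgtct

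In these windows the 4 genes differed. Sox4 held 4 CCAAT boxes, an arrangement of at least 4 that is found in 1.06% of the 32544 distinct promoter windows, and Sox2 held 1. Both held 1 retinoid half-site, at -162 to -157 from the start in Sox4 and at -244 to -239 in Sox2. A half-site occurs in 16.2% of all windows, and a half-site together with a CCAAT box in 5.99%. Sox2 also held 2 GC boxes, a motif of 35.9% of windows, and 27 CG dinucleotides against a median of 7. Cd44 held 1 GC box, overlapping the first bases of the transcript. None of the 8 motifs was found in the Cd34 window, which held 7 CG dinucleotides. Among the genes near 0, the half-site was also present in the first listed promoters of Nanog and Pou5f1. These are matches of letters only, and nothing in these data measured binding.

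Of the surface markers, Cd44 had the highest FPKM in 3 libraries, and Cd34 in the ATRA library. Its 6 transcript variants are summed in 1 row (chromosome 2, 102811141 to 102901669, minus strand, mm10), so the standard form and the variant exon forms were not separated. Its FPKM was 61.8 in the vehicle library, 42.2 after ATRA, 31.5 after SAHA and 21.0 after both compounds. Vehicle was highest, then ATRA, SAHA and the combination, an order shared as deposited with Tlr4 and with 8.83% of counted genes. In the vehicle library it ranked 292 from the top of 23359 rows. Against vehicle the log2 differences were -0.54 with ATRA, -0.95 with SAHA and -1.52 with both, so that only the last passed the 2-fold mark. The combination was 2.95-fold below vehicle. The difference with ATRA was -0.54 in the absence of SAHA and -0.57 in its presence, and the difference with SAHA was -0.95 without ATRA and -0.98 with it. The sum of the single compounds, -1.49, was near the combination as deposited, with a departure of -0.026. Under common total scaling the difference with SAHA was -0.49 without ATRA, that with ATRA was -1.22 in the presence of SAHA, and the departure was -0.52. The step down from ATRA to both compounds (-0.98) passed the mark under 4 alternatives of scaling and pseudocount, with values of -1.01 to -1.03.

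Genes that act with CD44 did not move as a block. Of 27 genes for its ligands, membrane anchors and sheddases, 13 were counted. With SAHA 2 were higher and 4 lower, with a median of -0.33 against -0.12 for all counted genes. Of all counted genes 7.88% were higher and 16.0% lower. The anchors that tie CD44 to actin were Ezr (ezrin) at 38.1, 32.3, 27.0 and 26.4 FPKM, Rdx (radixin) at 14.7, 14.1, 4.45 and 5.35 and Msn (moesin) at 25.0, 18.1, 8.66 and 7.11 FPKM with vehicle, ATRA, SAHA and both. Rdx and Msn were thus lower in both libraries with SAHA, while Ezr stayed within the mark. Mmp14, a membrane protease that can cleave CD44, was at 15.2, 11.5, 0.178 and 0.353 FPKM. Spp1, which encodes the CD44 ligand osteopontin, was highest with SAHA alone at 939 FPKM and was at 336, 566 and 433 FPKM with vehicle, ATRA and both. Cd74, the other gene of this list that was higher with SAHA, was at 0.0572, 0.0915, 2.43 and 2.46 FPKM with vehicle, ATRA, SAHA and both. It was higher in both libraries with SAHA. Has2, a hyaluronan synthase gene, was at no more than 0.155 FPKM. Hmmr, a second hyaluronan receptor gene, was at 8.53, 9.17, 2.22 and 9.74 FPKM, low in the SAHA library alone.

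Cd34 had the largest difference of the 10 genes. Its FPKM was 50.8 in the vehicle library, 49.4 after ATRA, 2.29 after SAHA and 4.12 after both (chromosome 1, 194938821 to 194961292, plus strand). The libraries without SAHA were close to each other and both lay far above the libraries with it. SAHA alone was 22.2-fold below vehicle, a log2 difference of -3.98 that was the 13th lowest of 8616, and the combination was 12.0-fold below ATRA alone (-3.30, the 23rd lowest). These comparisons share no library. The difference with ATRA was -0.040 without SAHA and 0.64 with it, and the latter was 0.13 under common total scaling. One other row, the noncoding gene Gm16897, shares the Cd34 locus. It was at 0.448, 0.452, 0.0566 and 0.0304 FPKM in the order above, and reads of overlapping genes were not separated here.

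CD34 also marks blood progenitors and vessels. The vessel genes Pecam1 and Cdh5 were at no more than 0.0186 and 0.0351 FPKM in any library, and all 10 endothelial genes were below 1 FPKM in all 4. Ptprc, the pan-leukocyte gene, was at 0.00603 to 0.0151 FPKM. Of the family, Podxl (podocalyxin) was at 4.89, 3.76, 1.70 and 2.43 FPKM with vehicle, ATRA, SAHA and both, lower by 1.13 on the log2 scale with SAHA alone and by 0.78 with both. Selp (P-selectin), a cell adhesion gene, was at 1.69, 4.53, 0.0662 and 0.0536 FPKM, higher with ATRA and lower in both libraries with SAHA. By the largest difference over the 3 log2 ratios to vehicle, the genes most like Cd34 among 7911 searched were Mmp14 (0.33), Emp3 (0.46) and Ltbp1 (0.46).

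Prom1 and Epcam, the other surface markers, were close to or at 0. Prom1 was at 0.00357 FPKM with vehicle, about 1.2 fragments by the depth estimate, and was listed at 0 in the other 3 libraries (chromosome 5, 43993621 to 44102047, minus strand). Epcam was at 0.0406, 0.00741, 0.0998 and 0.0331 FPKM, or about 8, 1.4, 20 and 7 fragments (chromosome 17, 87635979 to 87651127, plus strand). At this depth no difference between groups can be read from either gene. Cdh1 (E-cadherin), the epithelial partner of EpCAM, was at no more than 0.0159 FPKM, and Krt19 (a bile duct keratin) was at 0.102, 0.778, 0.127 and 0.0710 FPKM. Of 15 genes for partners of EpCAM and CD133, 6 were counted. With SAHA 3 of these were lower and 1 higher, against 16.0% and 7.88% of all counted genes. The lower ones were Fhl2 (5.56 against 24.1 FPKM with vehicle) and the tetraspanin genes Cd9 (7.07 against 24.4) and Tspan8 (0.198 against 2.42). The deacetylase gene Hdac6, whose protein binds CD133, was higher at 4.53 against 1.21 FPKM.

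Tlr4 separated the libraries with SAHA from those without as Cd34 did, at a lower level. Its FPKM was 5.09 in the vehicle library, 5.08 after ATRA, 0.466 after SAHA and 0.333 after both (chromosome 4, 66827551 to 66846581, plus strand). Vehicle and ATRA lay close together and the 2 libraries with SAHA were both under 1 FPKM. SAHA alone was 10.9-fold below vehicle (log2 difference -2.05) and the combination was 15.2-fold below ATRA alone (-2.19). The difference with ATRA was -0.0018 without SAHA and -0.14 with it. The genes most like Tlr4 over the 3 treated libraries were Rbms1 (largest difference 0.04), Prkg2 (0.09) and Spry2 (0.11).

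Of 10 genes for the TLR4 receptor complex 3 were counted, Hsp90b1, Cnpy3 and Cnpy4. With ATRA, SAHA or both against vehicle 0 of these passed the mark. From ATRA alone to both compounds Cnpy4 was lower, with a log2 difference of -1.05. Cd14, the coreceptor that hands over lipopolysaccharide, was at 1.38, 2.05, 0.150 and 0.146 FPKM with vehicle, ATRA, SAHA and both. Ly96, which encodes the TLR4 partner MD-2, was at 0.674, 0.714, 0.0382 and 0.130 FPKM. Both had means under 1 FPKM and stand outside the counts of genes, and in both the libraries with SAHA lay below those without. Against vehicle Cd14 was past the mark with SAHA (log2 difference -1.05) and with both compounds (-1.06). Lbp, the gene of the plasma protein that binds lipopolysaccharide, was at no more than 0.0865 FPKM. No other Toll-like receptor gene reached 1 FPKM in any library: of the 11 measured, Tlr2 was at 0.773, 0.376, 0.274 and 0.130 FPKM and Tlr3 at 0.309, 0.114, 0.0324 and 0.0109.

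Downstream of the receptor most listed genes stayed within the mark. Of 24 adaptors and signalling genes 16 were counted, and 2 were lower with SAHA and with both compounds, 0 higher, at medians of -0.0028 and -0.0076. Among all counted genes 16.0% and 12.6% were lower and 7.88% and 11.1% higher, so 2 of 16 is no more than the general share. The 2 lower genes were Irak1, the receptor-associated kinase gene, at 4.39, 5.22, 0.454 and 0.976 FPKM, and Nfkb1, an NF-kB subunit gene, at 4.71, 4.74, 0.781 and 0.995 FPKM. Myd88, the main adaptor, had a mean under 1 FPKM and was at 1.80, 1.13, 0.181 and 0.177 FPKM. Its log2 difference from vehicle was -1.25 with SAHA and -1.25 with both compounds, past the mark though outside the count. Tirap, a bridging adaptor named after its values were seen and also with a mean under 1 FPKM, was at 1.43, 1.59, 0.366 and 0.216 FPKM. Ticam1, the adaptor of the interferon branch, went the other way, at 1.36, 1.26, 2.42 and 1.70 FPKM, within the mark. It was 1 of 8 among the 16 counted genes with a log2 difference above 0 with SAHA. With both compounds 7 of the 16 had a difference above 0. Of the inhibitors of the pathway 6 of 12 were counted. With ATRA 0 were higher and 1 lower, with SAHA 0 and 1, and with both compounds 1 and 1. Sigirr, a receptor that dampens the signal, was at 7.91, 8.30, 0.828 and 1.01 FPKM. Atf3, a transcription factor that represses inflammatory genes, was at 3.19, 0.905, 3.36 and 8.49 FPKM, lower with ATRA and higher with both, with a departure from the sum of the single compounds of 2.26.

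**Figure D2:**
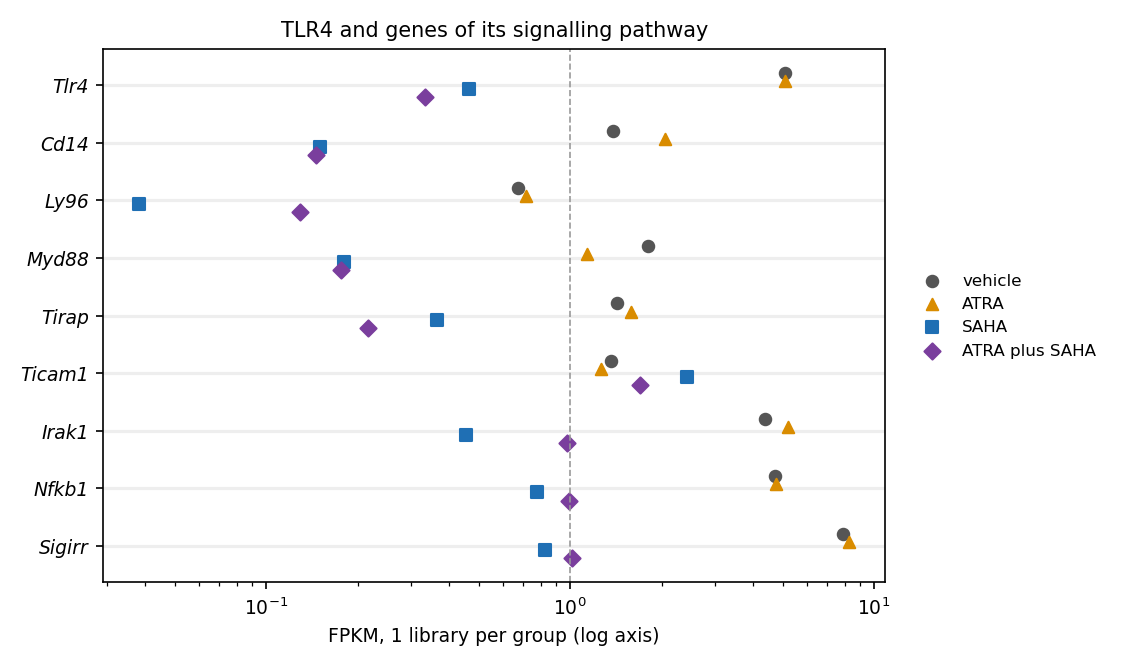
FPKM of Tlr4 and 8 genes of its pathway on a log axis, 1 point per library, with the dashed line at 1 FPKM. The genes are some of those described in the text, not the whole lists. For all genes shown but Ticam1, both libraries with SAHA have a lower FPKM than both without it. Lbp, Tlr2, Tlr3 and Atf3 are not shown, and Atf3 did not have that order.

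The pluripotency factors Nanog and Pou5f1 were near 0. Nanog was at 0.0277, 0.0427, 0.00695 and 0.0134 FPKM with vehicle, ATRA, SAHA and both, or about 5.4, 8.1, 1.4 and 2.8 fragments (chromosome 6, 122707489 to 122714633, plus strand). Pou5f1 was at 0.0211, 0.0455, 0.0217 and 0.0572 FPKM, or about 2.8, 5.9, 2.9 and 8.1 fragments (chromosome 17, 35506032 to 35510777, plus strand). Differences of a few fragments cannot be read at this depth. Lin28a and Lin28b, RNA-binding factors of pluripotent cells, were at no more than 0.0101 and 0.0432 FPKM, and Zfp42 (REX1), a further stem cell marker, at 0.394 to 0.568 FPKM.

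Of the 34 other genes listed for the pluripotency network, 9 were counted. With ATRA 0 were higher and 0 lower, and all 9 had a log2 difference below 0, with a median of -0.27 against -0.0005 for all counted genes. With SAHA 1 was higher and 3 lower, against 7.88% and 16.0% of all counted genes. Klf4, a reprogramming factor, was at 8.11, 3.90, 2.41 and 2.47 FPKM with vehicle, ATRA, SAHA and both, highest with vehicle. Myc was at 44.7, 26.5, 6.97 and 13.1 FPKM, and Zfx, a self-renewal factor, at 2.89, 2.41, 0.645 and 0.450. Klf2 was the gene that was higher, at 2.54, 2.30, 19.9 and 17.0 FPKM.

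Sox2 was the exception among the pluripotency factors, being measurable and different in both directions. Its FPKM was 3.20 in the vehicle library, 7.44 after ATRA, 0.575 after SAHA and 0.548 after both (chromosome 3, 34649995 to 34652461, plus strand). The ATRA library was highest, and both libraries with SAHA lay under 1 FPKM and close to each other. ATRA alone was 2.32-fold above vehicle, a log2 difference of 1.01 that only just passed the mark and was 0.997 after upper quartile scaling and 0.86 after scaling to a common total, both short of it. SAHA alone was 5.57-fold below vehicle (-1.42) and the combination 13.6-fold below ATRA (-2.45). The row shares its locus with Sox2ot, the long noncoding RNA in whose intron Sox2 lies, which was at 0.00310 to 0.0419 FPKM, and with Mir1897, which was listed at 0. The genes most like Sox2 were Selp (largest difference 0.09), the drug efflux gene Abcb1a (0.13) and the glutathione transferase gene Mgst1 (0.15).

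Sox4 followed the same order. Its FPKM was 3.24 in the vehicle library, 8.70 after ATRA, 1.23 after SAHA and 1.12 after both (chromosome 13, 28948919 to 28953699, minus strand). ATRA alone was 2.68-fold above vehicle, a log2 difference of 1.19 that ranked 64 from the top of 8616. With SAHA alone the difference was -0.93, short of the mark, and with both compounds it was -1.0023, at the mark. Against ATRA alone the combination was 7.79-fold lower (-2.20). With a pseudocount of 0.1 FPKM the difference with SAHA was -1.33. The nearest patterns were those of Gsr (glutathione reductase, largest difference 0.19), Ncmap (0.20) and Smad3 (0.24).

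Sox9, which directs bile duct and progenitor fates, had the lowest level of the 6 measurable genes with vehicle and passed the mark in none of the comparisons. Its FPKM was 1.19 in the vehicle library, 2.69 after ATRA, 0.910 after SAHA and 0.857 after both (chromosome 11, 112782210 to 112787757, plus strand). ATRA again was highest and the other 3 libraries lay close together. The log2 difference with ATRA was 0.76, short of the mark on this scale and 1.12 with a pseudocount of 0.1 FPKM. From ATRA alone to both compounds it was -0.99, a 3.14-fold lower FPKM, and -1.02 to -1.55 under 3 alternatives. The nearest patterns were those of Apool (0.13), Syngr1 (0.14) and Ccng2 (0.16).

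For the 3 SOX genes the difference with ATRA was above 0 without SAHA and below 0 with it. ATRA against vehicle gave 1.01 for Sox2, 1.19 for Sox4 and 0.76 for Sox9. The combination against SAHA alone, which shares no library with that comparison, gave -0.025, -0.075 and -0.041 as deposited and -0.29, -0.46 and -0.38 under common total scaling. None of the 10 genes was higher or lower in that comparison, against 3.04% and 0.929% of the counted genes. After scaling, its split of 262 higher and 80 lower genes became 187 and 116 (median centring) and 124 and 430 (common total), and under the last Cd44 was lower by 1.22. The departure from additivity, which is the log2 difference of the combination from vehicle less both single differences, was -1.03, -1.27 and -0.80 for Sox2, Sox4 and Sox9. A departure of -1 or lower was found in 1.73% of counted genes and one of 1 or higher in 4.69%, with a median of 0.15. For Cd44, Cd34 and Tlr4 it was -0.026, 0.68 and -0.13 as deposited, and the first 2 were -0.52 and 0.34 under common total scaling. With 1 library per group this difference between the responses was not tested.

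**Figure D3:**
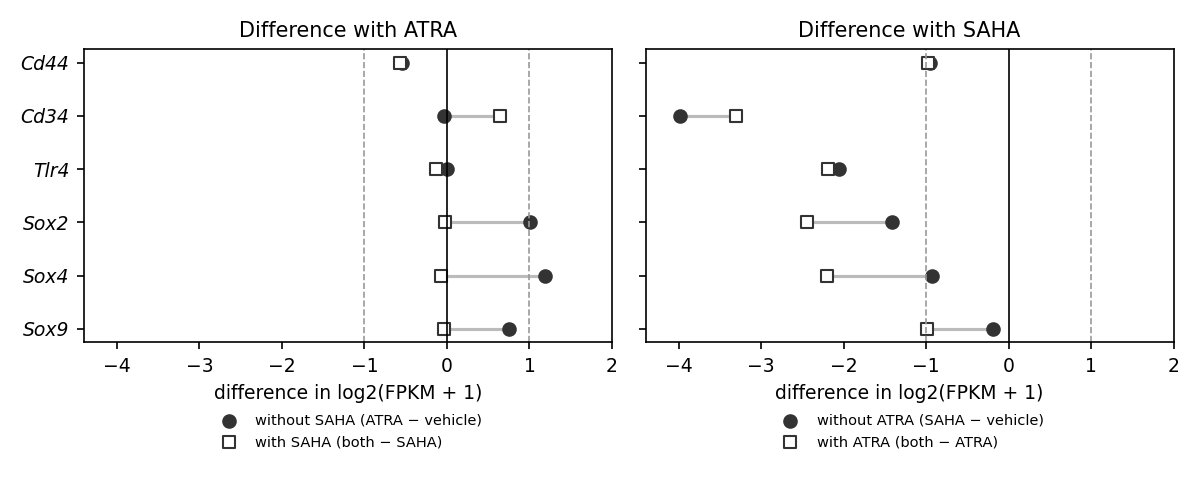
Differences in log2(FPKM + 1) for the 6 measurable genes, with ATRA (left) and with SAHA (right), each in the absence (filled circles) and presence (open squares) of the other compound. Dashed lines mark a difference of 1. Values are as deposited. The SOX genes lie at 0.76 to 1.19 with ATRA alone and close to 0 when SAHA is present.

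The addition of SAHA to ATRA gave the largest differences of the SOX genes. Between these 2 libraries 4 of the 6 measurable genes were lower (Cd34, Tlr4, Sox2 and Sox4) and 0 higher, against 11.9% and 10.5% of counted genes. Cd44 (-0.98) and Sox9 (-0.99) lay just outside the mark, and 5 or 6 genes were lower under 4 alternatives. Cd34, Tlr4 and Sox2 were lower both there and in SAHA against vehicle, as were 9.32% of counted genes. In all 6 genes both libraries with SAHA lay below both without it as deposited, and in 4 of 6 (not Cd44 and Sox9) under common total scaling, where Sox9 with SAHA was 0.05 above vehicle. As deposited that order held for 38.8% of counted genes, and the reverse order for 34.0%, so it is common in these data. ATRA highest, vehicle next and both libraries with SAHA lowest was the order of Sox2, Sox4 and Sox9 as deposited, and of 17.9% of counted genes.

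**Figure D4:**
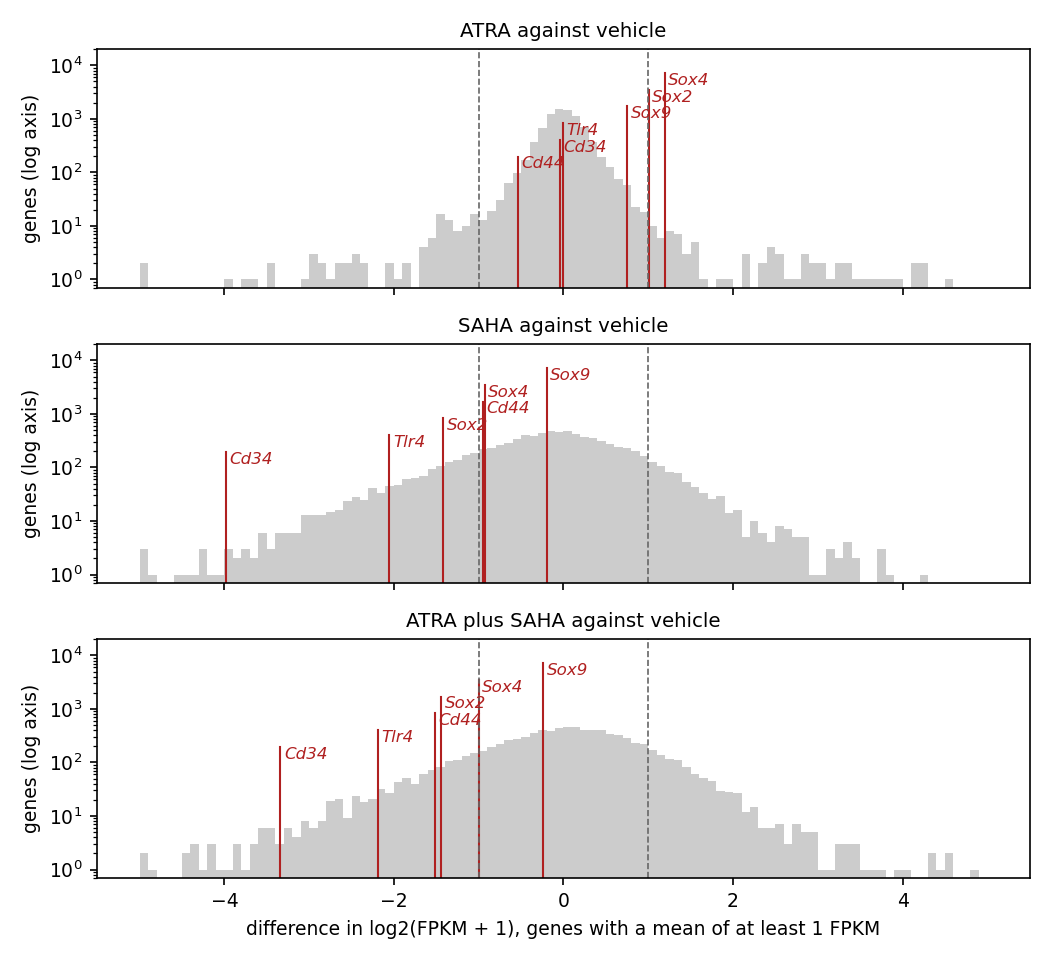
Histograms of the differences from vehicle in log2(FPKM + 1) for 8616 counted genes (grey, genes per bin on a log axis, values beyond 5 placed in the end bins), with red lines at the 6 measurable genes. With ATRA, Sox2 and Sox4 lie past the dashed mark at 1. With SAHA and with both compounds, Cd34 lies in the lower tail.

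Of the 17 other SOX genes measured 1 was counted, and it passed the mark in no comparison with vehicle. This was Sox12, a relative of Sox4, at 1.29, 1.86, 0.681 and 0.469 FPKM with vehicle, ATRA, SAHA and both. The remaining 16 had means under 1 FPKM. Sox11, which belongs to the same class as Sox4, was at 0.0985, 0.263, 0.0550 and 0.0446 FPKM.

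**Figure D5:**
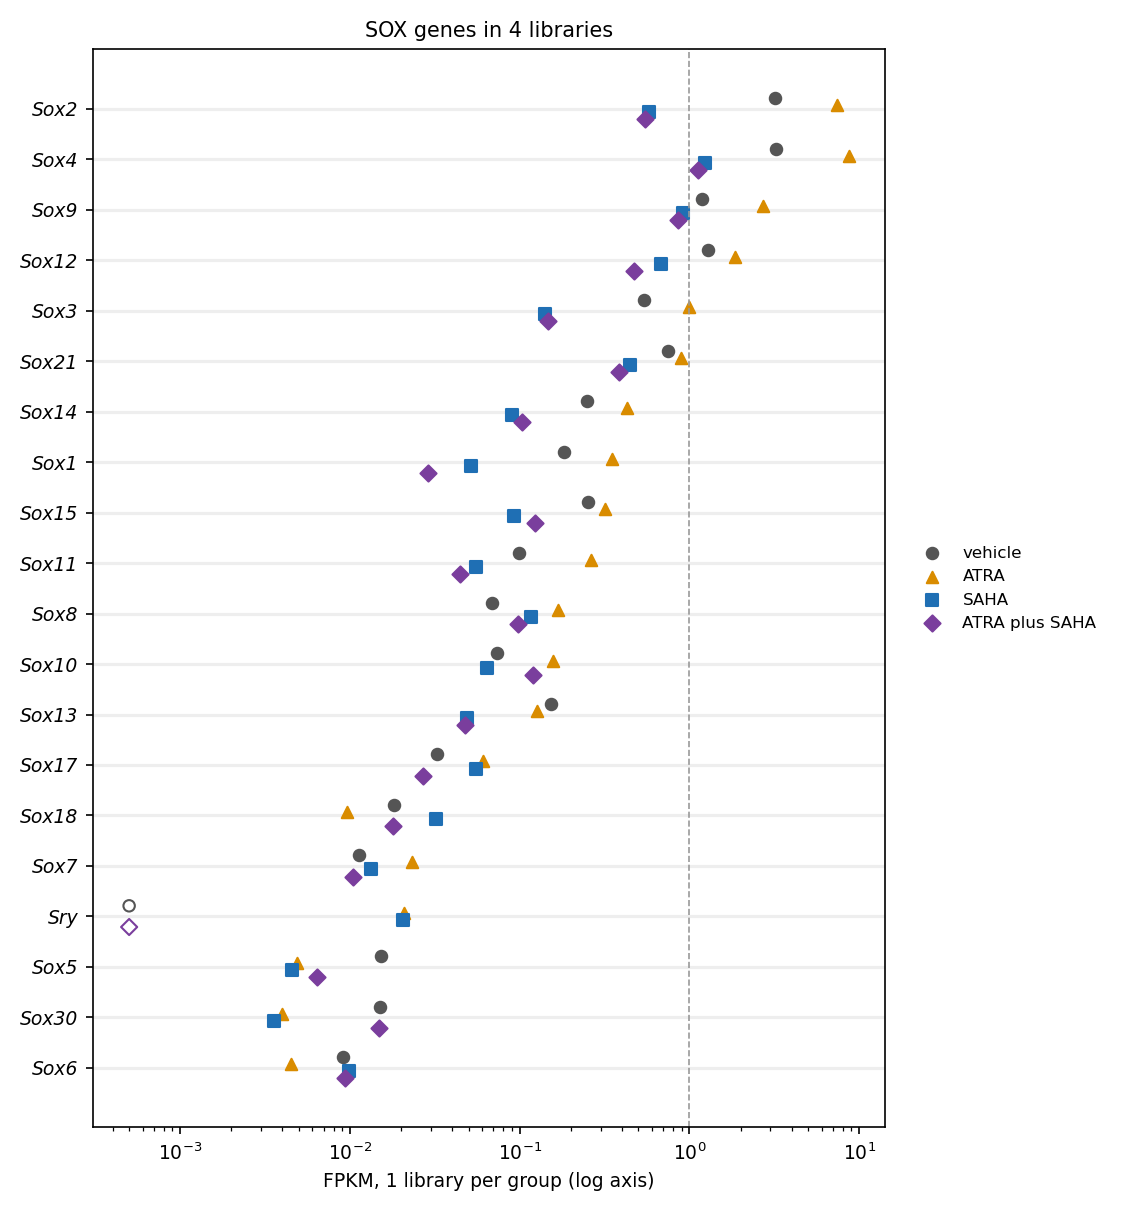
FPKM of Sox2, Sox4, Sox9 and the 17 other SOX genes of the table, on a log axis with 1 point per library and the dashed line at 1 FPKM. Open points are libraries in which a gene is listed at 0, and Sox12 is the only one of the 17 others with a mean of at least 1 FPKM.

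Around Sox9, 10 of 25 genes of bile duct progenitors and their Notch and Hippo control were counted. With SAHA 3 were higher and 2 lower, against 7.88% and 16.0% of all counted genes. Rbpj, the DNA-binding partner of Notch, was at 26.8, 21.6, 4.31 and 6.52 FPKM with vehicle, ATRA, SAHA and both, and Yap1, the Hippo effector, at 4.20, 3.41, 0.505 and 0.694. Both were lower in the libraries with SAHA, while Cyr61, a target gene of YAP1, was higher there at 18.9 and 37.3 FPKM against 7.40 and 7.06. Ctgf, a further YAP1 target, was higher with SAHA alone, at 4.70, 3.37, 15.6 and 5.38 FPKM, and lower by 1.38 on the log2 scale in the combination than with SAHA. Notch1, a Notch receptor gene, was higher in both libraries with SAHA, at 0.371, 0.488, 1.77 and 2.09 FPKM. Hes1, a Notch target, had a mean under 1 FPKM and was at 0.679, 1.35, 1.11 and 0.654.

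Among other markers used for liver tumour-initiating cells, most of those counted were also lower with SAHA. Of 29 such genes 13 were counted, and 16 stayed below 1 FPKM in every library. Of the 13, 9 were lower and 0 higher with SAHA alone (median -1.46). With both compounds 9 were lower and 0 higher (median -1.31), though not all the same genes. All counted genes had medians of -0.12 and 0.04, and 16.0% and 12.6% of them were lower. With ATRA alone 1 of the 13 was lower and 0 higher, at a median of 0.14. Ly6a, which encodes SCA-1 and has close paralogs, so that its reads may be shared with them, was at 28.2, 9.36, 0.819 and 0.352 FPKM with vehicle, ATRA, SAHA and both, and was the gene lower with ATRA. Igf2bp2, an RNA-binding protein gene, was at 8.64, 9.60, 0.843 and 1.0 FPKM, Twist1 at 7.62, 8.49, 0.701 and 1.30 and the drug efflux gene Abcb1b at 5.24, 9.24, 0.571 and 0.744. Cd47, whose protein protects cells from phagocytosis, was at 7.27, 5.47, 3.11 and 3.24 FPKM. It was lower with SAHA alone (log2 difference -1.01) and within the mark with both compounds (-0.97). Itga6, the gene of the stem cell integrin CD49f and named after its values were seen, was at 18.3, 16.4, 13.2 and 8.43 FPKM. It was within the mark with SAHA alone (-0.44) and lower with both compounds (-1.03). Abcg2 and Dlk1, also named after their values were seen, were the 2 counted markers with a log2 difference above 0 with SAHA. Abcg2 was at 2.13, 2.51, 3.52 and 2.22 FPKM and Dlk1 at 1.11, 1.41, 1.46 and 2.42, within the mark. Thy1, Anpep (CD13) and Cd24a, all used as liver cancer stem cell markers, were at no more than 0.0282, 0.0170 and 0.220 FPKM.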

How the data were processed

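Ribosomal RNA was removed from total RNA, per the labels' protocols. The submitters' processing notes name Trimmomatic 0.32, Cuffdiff and the mm10 build. Which aligner, annotation, strand setting and scaling between libraries the authors used was not given in the sources used here. Deposited were the authors' FPKM values, 1 column for each of the 4 libraries. Fragments quoted are estimates from steps in the FPKM values and transcript lengths of GENCODE M21, without an interval.

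From these, log2(FPKM + 1) and its differences were computed with Python 3.11.15 and pandas 2.3.3 for 5 comparisons. Genes whose 4 libraries averaged 1 FPKM or more were counted, and a difference of 1 or more was called. The rule was also run on simulated data with an assumed noise and planted differences. With 1 library per group the real noise is unknown, so that run cannot show how often calls are wrong here. The 10 genes, the 19 lists around them and the rules were chosen with earlier results of these data known. Genes were named as the 10 themselves, up to 4 called genes per list and comparison with the largest differences, a fixed set of partners and markers, and the 3 nearest patterns. Tirap, Itga6, Abcg2, Dlk1, Krt7, Col1a1, Col1a2, Col3a1, Cdh2, Hsp90b1, Cnpy3, Pdgfrb, Zeb2 and Cldn3 were named after their values were seen. Results for all lists serve as description, not as tests. Coordinates and promoters are from RefSeq on GRCm38.p6.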

Additional observations from a re-analysis of the deposited data

Results flagged for a closer look

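As deposited, the differences with ATRA of Sox2 and Sox4 were past the mark without SAHA and just below 0 with it. For Sox2 the log2 difference was 1.01 without SAHA and -0.025 with it, a departure from additivity of -1.03. For Sox4 the values were 1.19 and -0.075, a departure of -1.27. The values with SAHA are close to 0, each group is 1 library, and the difference between the responses was not tested.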

How the results depend on the processing

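Alternatives were a pseudocount of 0.1 FPKM, a minimum of 1 FPKM in the mean for the 10 genes, centring on the median ratio, upper quartile scaling, and scaling to a common total without the 10 highest rows and small RNAs. The minimum changes no value of the 6 measurable genes. Under the other 4 alternatives, of 120 recomputed differences of these genes 108 kept their side of the 2-fold mark, 2 no longer passed it, 10 newly passed it and 0 of those past it reversed. Below the mark, Sox9 with SAHA against vehicle turned from -0.20 to 0.05 under common total scaling. The number lower in the combination against ATRA went from 4 to 6 with the smaller pseudocount, centring or upper quartile scaling and to 5 under common total scaling. The number higher with ATRA went from 2 to 1 under upper quartile and common total scaling, as Sox2 missed the mark. Under common total scaling 1 gene (Cd44), not 0, was lower in the combination against SAHA. That scaling moved the median of all counted genes in SAHA against vehicle from -0.12 to 0.22. The departure from additivity of Sox9 was -1.20 with the smaller pseudocount and -1.01 under common total scaling. The share of all genes past the mark in either direction without a minimum level was 0.955% with ATRA, 9.40% with SAHA, 9.37% with both, 8.71% for both against ATRA and 1.55% for both against SAHA. With a minimum mean of 5 FPKM the last was 6.93%. No paired analysis was possible because each group has 1 library. For the same reason no library could be left out. Prom1, Epcam, Nanog and Pou5f1 rest on about 20 fragments or fewer per library, which limits what can be read from them.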
